A study of Rattus norvegicus with 8 samples.

Results

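The CA3 pyramidal neurons of sham-operated rats were compared, gene by gene, with those of naïve rats, which had no treatment. A gene entered the comparison when a probe other than a control probe carried its symbol and the scanner marked that probe as well above background on the 2 arrays of naïve, of sham or of both. This held for 10115 genes, read by 12179 probes, of 18341 genes with 23400 probes on the array. In the study, male Sprague-Dawley rats received fluid percussion brain injury, sham injury or no treatment, and brains were frozen 24 h later. Hippocampal neurons of the CA3 subfield were captured by laser from stained sections, and their RNA, amplified in 2 rounds, was hybridised to 8 single-colour whole-genome rat arrays in 4 groups. The 4 arrays used here were 2 from naïve and 2 from sham rats, hybridised to 1 slide. No genetic change is named, age is not given, and the agent used for anaesthesia is not named.

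CA3 pyramidal neurons take strong input from the mossy fibres of the dentate gyrus, excite each other through recurrent collaterals and are among the neurons most vulnerable to head injury. General anaesthetics act on GABA-A receptors, NMDA receptors and two-pore potassium channels. Surgery releases glucocorticoids, whose receptors are abundant in the hippocampus, and opening the skull can set off inflammation in the tissue beneath. A sham group serves to hold these influences apart from those of the injury itself, and a naïve group shows what the sham procedure brings with it.

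Few genes passed the threshold, which does not show that the others were alike. With each array divided by its median over all probes, the scaling that the methods describe, 42 of 10115 genes (0.415%) differed at an adjusted p under 0.05 in limma, 29 of them higher in sham (0.287%) and 13 lower (0.129%). Of these 42 genes, 38 lay among the 20% of genes with the lowest signal, and with no filter on background 0 probes passed in limma (2615 at an unadjusted p under 0.05). Among genes well above background on all 4 arrays, those past the threshold were Ptprj, Chd1l, Gnrh1 and Col3a1, all higher in sham. The deposited series values rest on other constants, and with them 0 probes passed (1558 at an unadjusted p under 0.05). None of the 23 lists of cell markers and pathways had a member past the threshold in that array-median fit, although Hspb1, Timp1, Ccl2 and Nts passed when only probes well above background on all 4 arrays were tested, while 7.02% of all genes had an unadjusted p under 0.05. Scaling to the 75th percentile left 0 of 20679 probes past the limma threshold and 1678 at an unadjusted p under 0.05, and put 4067 genes (40.2%) within a 2-fold band around no difference.

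The arrays differed in how much signal they held. Of 41012 probes besides controls, 22449 and 22391 on the naïve arrays were well above background, and 20911 and 20193 on the sham arrays. The median signal was 27.2 and 22.7 on the naïve and 16.5 and 16.4 on the sham arrays, so the divisor of every sham value was smaller. Values below are log2 of the signal over the array median unless another scale is named, and a difference is sham minus naïve. Over the 10115 genes the median difference was 0.43, and 8538 genes (84.4%) lay above 0. With each array divided by its 75th percentile the median difference was 0.14 and 64.8% of genes lay above 0. With quantile normalization these were 0.07 and 58.2%, with the median of bright probes (well above background on every array) 0.05 and 55.7%, and with the authors' series values 0.09 and 60.3%. The normexp background correction, followed by the array median, moved the median difference the other way, to 0.87. Differences of single genes with the array median are therefore to be read against 0.43.

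**Figure D1:**
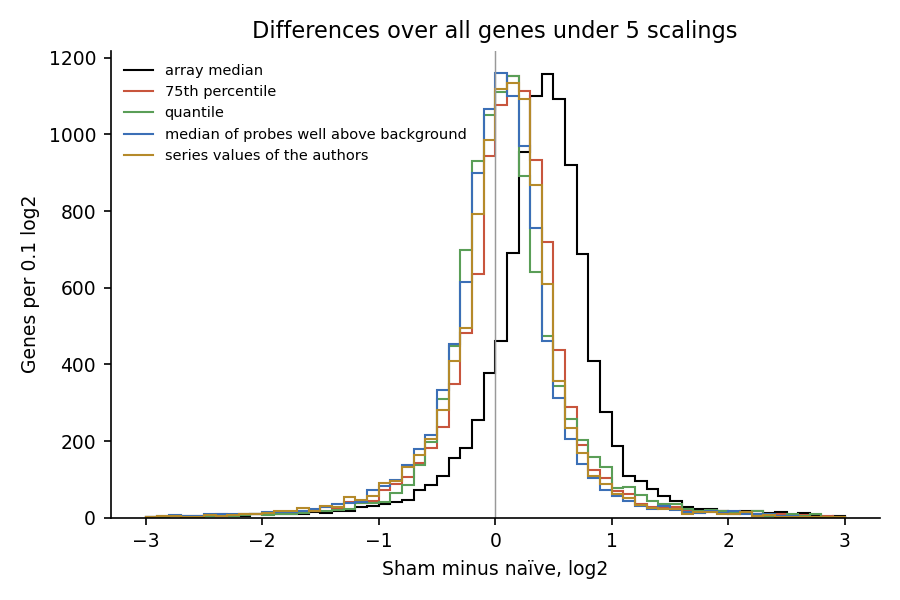
Number of genes by difference, sham minus naïve on the log2 scale, in steps of 0.1 under 5 scalings of the 4 arrays. The distribution with the array median is centred at 0.43, those with the 4 other scalings between 0.05 and 0.14.

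Naïve replicate 1 stood lowest. The median deviation of a gene from its mean over the 4 arrays was -0.46 on that array, 0.05 on naïve replicate 2, 0.34 on sham replicate 1 and 0.09 on sham replicate 2. Without naïve replicate 1 the median difference over genes was 0.16, and without naïve replicate 2 it was 0.68. It was 0.31 without sham replicate 1 and 0.55 without sham replicate 2. Naïve replicate 1 also held 734 spots marked as non-uniform, against 6, 15 and 8 on the other arrays, and these were left out. Across 18018 probes well above background on all 4 arrays, Pearson's r was 0.965 between the naïve replicates and 0.984 between the sham replicates. Between the groups it lay from 0.968 to 0.978, so that naïve replicate 1 was nearer to both sham arrays than to naïve replicate 2. Probes are not independent replicates, so no p-value is given for these correlations. The SD over probes of the difference between replicates was 0.71 in naïve and 0.51 in sham.

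Across all 20679 probes tested, with or without a gene symbol, 118 (0.571%) passed the threshold, 85 higher (0.411%) and 33 lower (0.16%) in sham, and of the 12179 with a symbol 57 (0.468%) passed. At an unadjusted p under 0.05 there were 1695. Among the 118, 60 were detected (well above background) on both sham arrays and on no naïve array, and 32 on both naïve arrays and on no sham array. A further 13 were detected on 3 arrays and 13 on all 4, and 12 had no value on naïve replicate 1. A probe detected in 1 group entered the test through the group in which it is high, so that its p-value favours a difference. The number of called probes followed the arrays in the fit. It was 981 without naïve replicate 1, 3390 without naïve replicate 2, 186 without sham replicate 1 and 230 without sham replicate 2, where a lone array is taken to vary like the other group. Of the 118 probes, 26 passed in each of these 4 fits. With quantile normalization 0 probes passed in limma (1547 at an unadjusted p under 0.05), with the median of bright probes 0 (1759) and with the authors' series values 0 (1558). The smallest adjusted p under those scalings and the 75th percentile lay between 0.226 and 0.319.

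**Figure D2:**
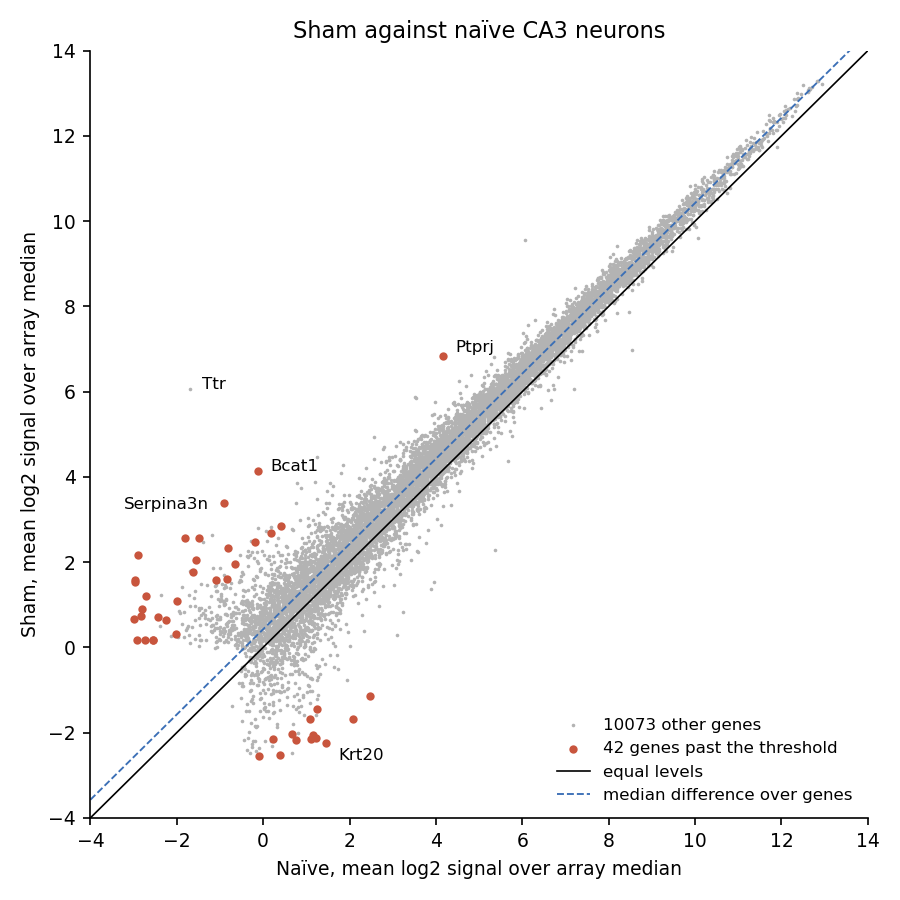
Mean log2 signal over the array median of 10115 genes in sham (y axis) against naïve neurons (x axis), with 42 genes past the adjusted threshold in red. The red points lie mostly at low signal, where a probe was detected in 1 group, while Ptprj stands apart at higher signal and Ttr far above the diagonal without passing.

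Among genes detected on every array, Ptprj, a receptor tyrosine phosphatase that restrains growth factor and cell adhesion signals, had a log2 signal of 3.47 and 4.84 in naïve and 6.89 and 6.77 in sham neurons. The groups lay apart by more than the gap within either. The difference was 2.68 (SE 0.54, adjusted p = 0.0409) and lay between 2.27 and 2.68 under the 5 scalings. Chd1l, a chromatin remodeller recruited to sites of DNA damage by poly(ADP-ribose), gave -0.27 and -0.10 in naïve and 2.85 and 2.11 in sham neurons. Its difference was 2.66 (SE 0.50, adjusted p = 0.0267). For Gnrh1, which encodes the precursor of gonadotropin-releasing hormone, the signal was 0.43 and -0.06 in naïve and 3.01 and 2.38 in sham neurons, a difference of 2.50 (SE 0.50, adjusted p = 0.0397). Col3a1, a fibrillar collagen of connective tissue and vessel walls, gave 0.73 and 0.12 in naïve and 2.66 and 3.03 in sham neurons, a difference of 2.42 (SE 0.50, adjusted p = 0.0427). Genes were picked with both sham arrays above both naïve arrays, as held for 44.4% of genes detected on all 4 arrays (4029 of 9078), or below, as held for 1.34%. None passed under the 4 other scalings or with no filter on background (adjusted p = 0.370), and each passed without either naïve array. Each missed the threshold without sham replicate 1 (adjusted p for Chd1l 0.435, Col3a1 0.22, Gnrh1 0.529 and Ptprj 0.214) and without sham replicate 2 (0.0724, 0.449, 0.125 and 0.151).

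The next in order of p was Hspb1, the small heat shock protein that protects actin filaments and holds unfolded proteins. Its signal was 2.04 and 3.09 in naïve and 4.75 and 5.11 in sham neurons. The difference was 2.37 (SE 0.52), with an adjusted p of 0.0615, which missed the threshold. It passed without naïve replicate 2 (adjusted p = 0.000147) and not without any other array (0.051, 0.255 and 0.491). It also passed with a trend in the prior (0.00183), with the replicate number as a block (0.0164), with non-uniform spots kept (0.0413) and when only probes detected on all 4 arrays were tested (0.00405). The genes with both groups apart and the next smallest p were Fabp6, a bile acid carrier, Aspg, an asparaginase, LOC687191, Slc16a3, a lactate transporter, LOC679861, Npl, an enzyme of sialic acid breakdown, and Fxyd2, a subunit that modulates the sodium pump. None of these 7 passed in that fit, with adjusted p up to 0.124, while Fabp6 and Aspg passed with a trend (0.0195 and 0.0189). When only probes detected on all 4 arrays were tested, Fabp6, Aspg, LOC687191, LOC679861 and Slc16a3 passed (up to 0.0383). Fabp6, Aspg, LOC679861 and LOC687191 passed with the replicate number as a block (up to 0.0439). With non-uniform spots kept, Fabp6 and Aspg passed (0.0414 and 0.0477). Slc16a3 had 1.05 and 1.01 in naïve and 2.57 and 3.50 in sham neurons, and Fxyd2 had -0.70 and -0.62 in naïve and 1.49 and 0.99 in sham neurons. Over these 12 genes the difference lay between 1.89 and 2.68 with the array median and between 1.52 and 2.68 over the 5 scalings, above the 0.43 of the median gene.

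Promoters are shown for a pair of the genes past the threshold and for Hspb1, whose induction by heat shock factors is textbook knowledge, as the 300 bases around the start of the gene (RefSeq, assembly GRCr8), each 5′ to 3′ on the strand of the gene. They are Ptprj at chr3:97017607-97017906 on the minus strand, Chd1l at chr2:187885949-187886248 on the minus strand and Hspb1 at chr12:26432252-26432551 on the minus strand. Capitals mark the heat shock element letters GAANNTTC, searched on both strands. Of the 48 genes picked by rule, 31 had a promoter in that table, and Gnrh1 and Col3a1 had none.
Ptprj: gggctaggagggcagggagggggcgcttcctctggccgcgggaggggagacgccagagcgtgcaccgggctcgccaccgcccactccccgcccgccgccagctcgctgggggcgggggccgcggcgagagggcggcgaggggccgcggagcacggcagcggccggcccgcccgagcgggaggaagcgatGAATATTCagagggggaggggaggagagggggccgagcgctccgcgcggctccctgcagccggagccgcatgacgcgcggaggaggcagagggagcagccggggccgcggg
Chd1l: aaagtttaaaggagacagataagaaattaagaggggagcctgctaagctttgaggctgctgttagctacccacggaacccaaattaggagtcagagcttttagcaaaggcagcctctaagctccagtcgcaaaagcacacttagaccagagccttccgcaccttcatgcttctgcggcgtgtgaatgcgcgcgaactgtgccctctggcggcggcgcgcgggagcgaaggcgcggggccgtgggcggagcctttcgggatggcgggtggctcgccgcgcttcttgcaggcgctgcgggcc
Hspb1: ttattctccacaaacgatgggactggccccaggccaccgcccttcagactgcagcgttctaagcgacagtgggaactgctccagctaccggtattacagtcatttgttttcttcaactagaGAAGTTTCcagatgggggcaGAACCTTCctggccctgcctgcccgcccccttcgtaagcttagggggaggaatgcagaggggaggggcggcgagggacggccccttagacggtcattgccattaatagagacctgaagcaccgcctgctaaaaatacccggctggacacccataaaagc
The letters occur at 2 places in the Hspb1 promoter and at 1 place in that of Ptprj. They do not occur in that of Chd1l, and 8.59% of 33469 promoters hold them. The letters TGANTCA of AP-1 (7.33% of promoters), CCAAT (37.5%) and TATAAA (14.2%) occur in none of the 3. A match is a description of the letters and says nothing about binding.

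A further set of genes was detected in sham neurons alone. For such a probe the change is a lower bound, in which the silent array takes the weakest signal that was still well above background on it, or the probe's own signal if that is stronger. Among genes with a value on all 4 arrays the bound was above 0 for 55 genes higher in sham. Each bound given here or below uses the array median alone, with which the median gene was 0.43 higher in sham. It holds for the arrays in use and can be smaller with 1 array left out. The p-values of these genes and of those detected in naïve neurons alone are left out here, since detection in 1 group was itself the way into the test. Mpp4, a scaffold protein of the membrane-associated guanylate kinase family, had -0.86 and -2.75 in naïve and 2.12 and 3.01 in sham neurons. It was at least 10.2-fold higher in sham (7.51-fold without sham replicate 2). Nos3, the nitric oxide synthase of endothelium, had -0.96 and -2.30 in naïve and 1.95 and 1.57 in sham neurons, at least 5.84-fold higher. LOC686809, S100a3 and Rhbdl3 were at least 5.09-fold, 4.58-fold and 4.46-fold higher. With 1 array left out these bounds fell as low as 4.41-fold, 3.55-fold and 3.78-fold. For Ccdc37 the bound was 4.59-fold, but 9.70-fold without sham replicate 1 and 2.17-fold without sham replicate 2.

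In the other direction, no gene detected on all 4 arrays passed in the array-median fit of all 4 arrays. The smallest p belonged to Copg2, a subunit of the COPI vesicle coat, with 2.19 and 2.47 in naïve and 0.61 and 0.17 in sham neurons. Its difference was -1.94 (SE 0.49, adjusted p = 0.113), and it lay between -2.16 and -1.72 when 1 array was left out. Akap12, an anchor for protein kinase A, had 2.22 and 2.93 in naïve and 1.22 and 1.36 in sham neurons. Gsdmd, the pore protein of pyroptosis, had 2.73 and 3.25 in naïve and 1.84 and 2.01 in sham neurons. Ifi27, an interferon-induced gene, had 8.14 and 8.96 in naïve and 8.09 and 5.85 in sham neurons, so that sham replicate 2 alone was far below the rest, and it passed with a trend in the prior (0.0156). Others picked by the same rule were Chct1, LOC682926, Smoc2, Diaph1, Thrsp, LOC683419 and Syt2. The 12 genes picked had adjusted p between 0.113 and 0.599 and differences between -1.94 and -1.07, and under the 5 scalings between -2.31 and -1.07. Some of these differences followed the naïve array left out. Without naïve replicate 1 or 2 they were -1.09 or -1.59 for Chct1, -0.70 or -1.92 for Diaph1 and -0.78 or -1.93 for Smoc2. For LOC682926, with a difference of -1.29, another probe gave -1.27 and a pair of probes gave 0.61 and 1.30, so its direction depends on the probe.

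Detected in naïve neurons alone, with a value on all 4 arrays, were 176 genes, of which 140 had a bound above 0. LOC246295 had 2.47 and 2.50 in naïve and -0.70 and -1.59 in sham neurons, at least 6.54-fold lower in sham. Another of its probes, well above background on both naïve and 1 sham array, differed by -0.32. Slc27a5, an enzyme that couples bile acids and fatty acids to coenzyme A, had 2.26 and 1.89 in naïve and -1.98 and -1.36 in sham neurons, at least 4.92-fold lower. Krt20, a keratin of gut epithelium, had 0.84 and 2.07 in naïve and -2.34 and -2.14 in sham neurons, at least 3.20-fold lower (4.89-fold without naïve replicate 1 and 2.10-fold without naïve replicate 2). Pstpip1 had 0.28 and 2.99 in naïve and -0.58 and -0.33 in sham neurons, so that its bound of 3.62-fold was 9.29-fold without naïve replicate 1 and 1.41-fold without naïve replicate 2. Znrf4 was at least 2.91-fold lower (1.85-fold and 4.60-fold without naïve replicate 1 or 2), and Sema3e, a repulsive guidance signal, at least 2.83-fold.

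**Figure D3:**
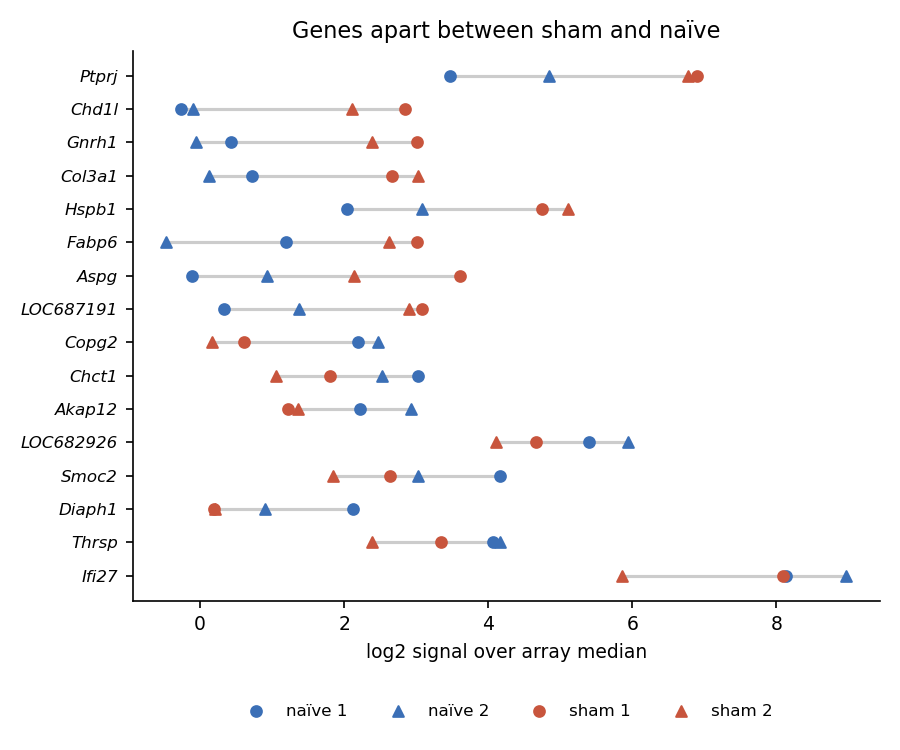
Log2 signal over the array median on each of the 4 arrays for the leading 8 genes picked as higher and the leading 8 picked as lower in sham among genes detected on all 4 arrays. Blue symbols are naïve and red symbols sham, circles replicate 1 and triangles replicate 2. Ptprj, Chd1l, Gnrh1 and Col3a1 passed the threshold and the other 12 did not.

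The study's filter, applied here to sham and naïve, counts changes with no test. It asks for signal above background and replicates within 50%, read here as well above background on all 4 arrays and a ratio of at most 1.5 in naïve and in sham, and takes those whose group means differ by more than 2-fold. Of 6778 probes that passed the replicate filter, 388 (5.72%) differed by more than 2-fold, 364 higher (93.8%) and 24 lower in sham. With the smaller replicate at least 50% of the larger, another reading, 737 did. With the 75th percentile the count was 192, of which 53.6% were higher. With quantile normalization it was 206 (76.2% higher), with the median of bright probes 193 (35.2%) and with the series values 190 (46.8%), so the split by direction follows the scaling. Under each of the 5 scalings 30 probes were higher and 12 lower, which carry 14 and 6 gene symbols. Those higher were Fxyd2, Arap1, Dclk1, Mau2, Cd47, Clcn3, Clic1, Rasal2, Med14, Epb41l4a, Pcsk5, Ubqln4, Cbx1 and RGD1560364, and those lower included Copg2, LOC682926, LOC683419, Gsdmd and Pde10a. Cd47, the surface signal that holds off phagocytes, had 4.75 and 4.86 in naïve and 6.61 and 6.19 in sham neurons. Pcsk5, a proprotein convertase, had 5.24 and 5.44 in naïve and 6.87 and 6.77 in sham neurons. Pde10a, a phosphodiesterase, had 3.03 and 3.59 in naïve and 2.47 and 2.15 in sham neurons. None of the 20 passed in limma (adjusted p between 0.113 and 0.649). Without naïve replicate 1 the filter passed 1466 probes over 2-fold, without naïve replicate 2 it passed 2437, and without sham replicate 1 or 2 it passed 586 or 1120.

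The captured cells carried the markers of pyramidal neurons in both groups. All 20 genes of the pyramidal list were tested, 18 of them higher in sham, and the median difference was 0.57, between 0.13 and 0.28 under the 4 other scalings. Counts of members higher in sham are, for every list, those with the array median. In limma 0 passed and 1 had an unadjusted p under 0.05. That gene was Bhlhe22, a transcription factor of excitatory neurons, with 4.40 on naïve replicate 2 and 5.60 and 5.88 in sham neurons, and no value on naïve replicate 1. Neurod6, another such factor, had 7.33 and 7.75 in naïve and 8.47 and 8.09 in sham neurons. Grik4, a kainate receptor subunit enriched in CA3, had 3.61 and 4.95 in naïve and 4.83 and 4.79 in sham neurons, overlapping values. Summed over the list, the signal over the array median was 17016 and 23985 in naïve and 32063 and 26996 in sham neurons. Of 9 genes of granule cells or CA1 on the array, Prox1, Dsp, Tdo2, Fibcd1, Lct and Mpped1 were below background on all 4 arrays. The remaining 3, Calb1, Wfs1 and Pou3f1, had a median difference of -0.06 and stayed negative under all 5 scalings, with 0 past the limma threshold and 0 at an unadjusted p under 0.05. In such pools a smaller number of cells of a type and less RNA per cell cannot be told apart.

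Markers of other cells were present too. Of 10 interneuron genes tested, 8 were higher in sham with a median of 0.34, which turned negative with quantile normalization and the median of bright probes (-0.05 and -0.03). Past the limma threshold were 0, and 0 had an unadjusted p under 0.05. Their summed signal was 743 and 1023 in naïve and 960 and 1052 in sham neurons, Npy the brightest, while Gad2 and Lhx6 were below background throughout. Of 13 microglial genes 12 were higher, beside 84.4% of all genes, with a median of 0.39 that fell just under 0 with quantile normalization (-0.01). The limma fit called 0, and 1 had an unadjusted p under 0.05, the lysosomal protein Cd68 with 0.97 and 1.61 in naïve and 2.52 and 2.52 in sham neurons. The microglial sum was 306 and 629 in naïve and 565 and 545 in sham neurons, with C1qa and Laptm5 the brightest, and Itgam and Cx3cr1 were below background on all 4 arrays. Of 13 astrocyte genes 8 were higher, with a median of 0.26 that was negative under each of the 4 other scalings (-0.19 to -0.03). The water channel Aqp4, with 0.14 and 0.43 in naïve and 1.32 and 1.35 in sham neurons, alone had an unadjusted p under 0.05, and 0 passed in limma. The glial filament Gfap, raised in reactive astrocytes, had 1.43 and 2.10 in naïve and 1.75 and 1.58 in sham neurons, so the groups overlapped. The astrocyte sum was 1558 and 1920 in naïve and 2502 and 1643 in sham neurons, Slc1a3 the brightest.

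Oligodendrocyte genes were higher in sham for 15 of 16, beside 84.4% of all genes. Their median was 0.42, and 0.04 to 0.13 under the 4 other scalings. By limma 0 of them passed, and 0 had an unadjusted p under 0.05. The smallest p among those detected on all 4 arrays was that of Mal, a membrane raft protein of myelin, with 3.63 and 4.14 in naïve and 4.66 and 4.76 in sham neurons, and the summed signal was 2099 and 2020 in naïve and 3204 and 2932 in sham neurons, while Olig2 and Ugt8 were below background. Of 9 vessel genes 6 were higher, with a median of 0.28 that was negative under the 4 other scalings (down to -0.13). In limma 0 passed, and 0 had an unadjusted p under 0.05. The vessel sum was 198 and 269 in naïve and 294 and 253 in sham neurons, with Pecam1 and Tek below background. What part these other cells had in any difference was not tested.

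1 marker set apart sham replicate 2. Ttr, the thyroid hormone carrier made in quantity by choroid plexus, had -0.26 and -3.13 in naïve neurons, 1.34 on sham replicate 1 and 10.81 on sham replicate 2. Ttr was well above background on 1 naïve and both sham arrays. With the undetected array at its weakest detected signal, the log2 difference was at least 6.61, or 97.6-fold. This bound was 3.66-fold without sham replicate 2 and 2605-fold without sham replicate 1. Ttr entered the test through sham alone, so that its p-value favours a difference. Folr1, also of choroid plexus, was well above background on sham replicate 2 alone (0.91), and Kl and Slc4a5 were below background on all 4 arrays. The red cell enzyme Alas2 had 1.67 and 0.13 in naïve and 2.29 and 2.13 in sham neurons, and the globin Hbb 2.63 and 1.87 in naïve and 2.0 and 2.14 in sham neurons. Over these blood and choroid genes the summed signal was 10.2 and 4.87 in naïve neurons, 11.4 on sham replicate 1 and 1806 on sham replicate 2. Of the 3 genes tested 0 passed in the array-median limma fit, 2 had an unadjusted p under 0.05 (Ttr and Alas2), and the median difference was 1.31 (0.94 to 1.08 under the 4 other scalings). In that limma fit Ttr had an adjusted p of 0.098. It passed with a trend in the prior, with the replicate number as a block and with non-uniform spots kept. Those p-values are left out, since sham was its way into the test and its sham values were 1.34 and 10.81.

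**Figure D4:**
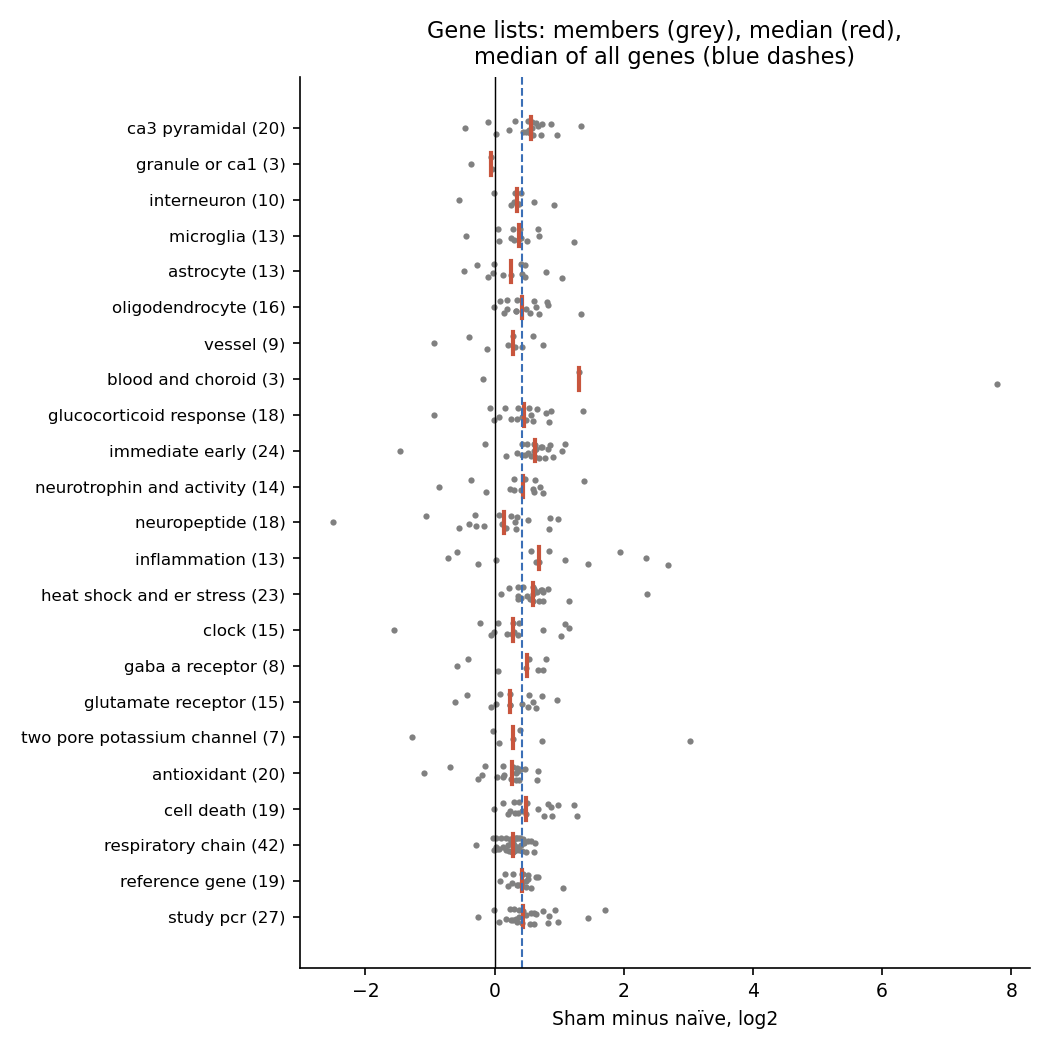
Differences, sham minus naïve on the log2 scale, of the members of 23 gene lists (grey points), the median of each list (red) and the median of all genes (blue dashes). The number of members tested follows the name of each list. Most list medians lie near the 0.43 of all genes, and the far point among blood and choroid genes is Ttr. With the other scalings the medians of interneuron, microglia, astrocyte, vessel, neuropeptide, clock, glutamate receptor, two-pore channel, antioxidant, respiratory chain and reference genes turn negative in at least 1.

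Stress hormones act through the glucocorticoid receptor, and Fkbp5, Tsc22d3 and Sgk1 are among its direct targets in neurons. Of 18 genes of the glucocorticoid list 15 were higher in sham, with a median of 0.46 beside 0.43 over all genes and of 0.05 to 0.17 under the 4 other scalings. Past the limma threshold were 0, and 1 had an unadjusted p under 0.05. This was Lcn2, an iron-binding protein of acute inflammation, with 1.02 and 1.95 in naïve and 3.28 and 2.43 in sham neurons. Fkbp5, a chaperone that dampens the receptor, had 6.38 and 7.27 in naïve and 7.62 and 7.73 in sham neurons, and its difference was 0.85 (SE 0.51). This difference lay between 0.40 and 1.29 when 1 array was left out. Dusp1, a phosphatase of stress kinases, had 1.60 and 1.76 in naïve and 0.95 and 0.55 in sham neurons. It stood lower under each of the 5 scalings, with an adjusted p of 0.681. The receptor itself, Nr3c1, had 4.37 and 4.54 in naïve and 5.07 and 4.82 in sham neurons.

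Heat shock and endoplasmic reticulum chaperones were higher in sham for 23 of 23 genes, beside 84.4% of all genes. The median difference was 0.59, beside 0.43 over all genes. Under the 4 other scalings it was 0.16 to 0.31, beside 0.05 to 0.14 over all genes. The limma fit called 0 and 2 had an unadjusted p under 0.05, Hspb1 and the protein disulfide isomerase Pdia4. Pdia4 had 3.0 and 2.49 in naïve and 4.07 and 3.71 in sham neurons. The inducible chaperone Hspa1a had 6.07 and 6.17 in naïve and 7.31 and 6.58 in sham neurons, and Hspa5, the chaperone of the endoplasmic reticulum, 9.46 and 9.81 in naïve and 10.48 and 10.22 in sham neurons. With the 75th percentile 12 of the 23 were level, that is, the 95% confidence interval of the difference lay within 2-fold of none.

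Immediate early genes, which neurons switch on within minutes of strong activity, were higher in sham for 22 of 24, beside 84.4% of all genes. The median difference was 0.62, and 0.18 to 0.34 under the 4 other scalings. By limma 0 of them passed and 2 had an unadjusted p under 0.05, of which 1, Fos, entered the test through naïve neurons alone, so that its p favours a difference. Fos had -0.28 and 0.34 in naïve and -2.32 and -0.54 in sham neurons, where it was not detected, and its bound of 1.19-fold lower was lost without naïve replicate 2 (0.96-fold). The other was the transcription factor Klf10, with 5.56 and 5.80 in naïve and 6.87 and 6.67 in sham neurons. Arc, which reshapes synapses after activity, had 6.27 and 6.45 in naïve and 7.0 and 6.57 in sham neurons, and Egr1 had 7.12 and 8.04 in naïve and 8.10 and 8.20 in sham neurons. Their differences were 0.42 and 0.57, beside 0.43 for the median gene. With 1 array left out, the difference lay between 0.21 and 0.64 for Arc and between 0.11 and 1.03 for Egr1. For the median gene it then lay between 0.16 and 0.68.

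Of 14 growth factors and activity-dependent secreted proteins tested, 11 were higher in sham, the median was 0.44 and, under the 4 other scalings, 0.05 to 0.15. In limma 0 passed and 1 had an unadjusted p under 0.05. It was Nptx2, a pentraxin that gathers AMPA receptors at synapses, with 5.84 and 6.74 in naïve and 7.64 and 7.72 in sham neurons, a difference of 1.39 (SE 0.51, adjusted p = 0.396, and 0.0467 with a trend in the prior). Bdnf had 2.24 and 2.47 in naïve and 3.02 and 2.92 in sham neurons, its receptor Ntrk2 6.92 and 8.21 in naïve and 7.51 and 8.24 in sham neurons. Igf1 had 4.20 and 4.86 in naïve and 3.30 and 4.06 in sham neurons, lower under all 5 scalings without passing.

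Of 18 neuropeptides tested, 11 were higher in sham, with a median of 0.14, and the median was negative under each of the 4 other scalings (-0.23 to -0.15). Past the limma threshold were 0 and 1 had an unadjusted p under 0.05. That was Nts, the precursor of neurotensin, with 2.14 and 5.61 in naïve and -0.08 and 2.84 in sham neurons. The naïve values lie far apart, and its difference of -2.50 (SE 0.98) was -4.24 without naïve replicate 1, where it passed, and -0.76 without naïve replicate 2. It also passed without sham replicate 2, with a trend, with the block and when only probes detected on all 4 arrays were tested. Cort, the precursor of cortistatin, had 3.32 and 4.32 in naïve and 2.94 and 2.57 in sham neurons. Tac1, the precursor of substance P, had 4.05 and 3.62 in naïve and 4.61 and 5.03 in sham neurons. Npy and Cck, both abundant in hippocampal interneurons, overlapped between the groups, with 7.71 and 8.34 against 7.99 and 8.56 for Npy.

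Inflammation genes included some of the larger differences among the lists. Of 26 genes 13 were tested, and Il1b, Il6 and Tnf were below background on all 4 arrays. Of the 13, 10 were higher in sham, with a median of 0.69 and of 0.31 to 0.40 under the 4 other scalings. The limma fit called 0, and 4 of the 13 had an unadjusted p under 0.05, beside 7.02% of all genes. Timp1, an inhibitor of matrix metalloproteinases, had 3.02 and 4.01 in naïve and 6.93 and 4.81 in sham neurons, a difference of 2.35 (SE 0.65, adjusted p = 0.164). Lgals3, the galectin of activated phagocytes, had 1.32 and 1.59 in naïve and 2.76 and 4.02 in sham neurons, a difference of 1.94 (SE 0.54, adjusted p = 0.167). Both sham arrays were above both naïve arrays for these genes, with a wide gap within sham. The difference of Timp1 was 1.29 without sham replicate 1 and 3.41 without sham replicate 2. That of Lgals3 was 2.57 without sham replicate 1 and 1.31 without sham replicate 2. Ccl2, which draws monocytes, had -0.49 and -0.56 in naïve neurons, 4.20 on sham replicate 1 and 0.13 on sham replicate 2. Its difference was 2.69, and 0.66 without sham replicate 1. Cd14, the coreceptor for endotoxin, had 0.85 and 0.97 in naïve and 3.13 and 1.60 in sham neurons. Ccl2 and Timp1 passed without naïve replicate 2 and without sham replicate 2, and Lgals3 without naïve replicate 2. Ccl2 and Timp1 also passed with a trend, with the block and when only probes detected on all 4 arrays were tested.

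Among targets of anaesthetics, GABA-A receptor subunits were higher in sham for 6 of 8, with a median of 0.51 (0.14 to 0.25 under the 4 other scalings), 0 past the limma threshold and 0 at an unadjusted p under 0.05. Gabrb1 had 7.48 and 7.71 in naïve and 8.63 and 8.07 in sham neurons. Glutamate receptor subunits were higher for 12 of 15, with a median of 0.24 that was negative with the 75th percentile, the median of bright probes and the series values (-0.13 to -0.04). By limma 0 of them passed, and 0 had an unadjusted p under 0.05. Gria2, the AMPA subunit that blocks calcium, had 7.03 and 7.03 in naïve and 8.26 and 7.74 in sham neurons. Grin1, the obligatory NMDA subunit, had 9.58 and 10.07 in naïve and 10.79 and 10.33 in sham neurons. Of 7 two-pore potassium channels 5 were higher, with a median of 0.29 that was negative with quantile normalization, the median of bright probes and the series values (-0.08 to -0.04). In limma 0 passed and 2 had an unadjusted p under 0.05, of which 1, Kcnk1, entered the test through naïve and the other, Kcnk13, through sham neurons, so that both p-values favour a difference. Kcnk13 had 0.65 and, undetected, -2.97 in naïve and 2.26 and 1.47 in sham neurons, at least 3.86-fold higher (6.37-fold and 2.33-fold without naïve replicate 1 or 2). In the array-median limma fit Kcnk13 missed the threshold (adjusted p = 0.17). It passed with a trend in the prior and with the replicate number as a block. Those p-values are left out, since sham was its way into the test. Kcnk1, at least 1.33-fold lower, had 0.15 and 0.22 in naïve and -0.71 and -1.48 in sham neurons.

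Clock genes, which can shift with the hour of sampling and with anaesthesia, were higher in sham for 11 of 15. Their median of 0.29 was -0.09 with the median of bright probes and -0.04 with the series values. Past the limma threshold were 0, and 2 had an unadjusted p under 0.05, of which 1, Rora, entered the test through naïve neurons alone, so that its p favours a difference. Cry1, a repressor of the clock, had 1.93 and 1.54 in naïve and 2.83 and 2.84 in sham neurons. Rora, an activator, had 0.27 and -0.15 in naïve and -2.45 and -0.55 in sham neurons, at least 1.22-fold lower. Per2 had 2.80 and 3.67 in naïve and 4.29 and 4.24 in sham neurons, whereas Per1 had 0.94 and 1.10 in naïve and 0.97 and 1.07 in sham neurons.

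Cell death genes were higher in sham for 18 of 19, beside 84.4% of all genes. Their median was 0.49, or 0.12 to 0.20 under the 4 other scalings. The limma fit called 0, and 2 had an unadjusted p under 0.05. Bak1, which permeabilises the outer mitochondrial membrane, had 2.45 and 2.20 in naïve and 3.79 and 3.41 in sham neurons, and its antagonist Mcl1 had 3.60 and 2.75 in naïve and 4.87 and 3.94 in sham neurons. Antioxidant genes were higher for 15 of 20, with a median of 0.27 that was negative under the 4 other scalings (-0.14 to -0.01). By limma 0 of them passed, and 1 had an unadjusted p under 0.05, Srxn1, which entered the test through naïve neurons alone, so that its p favours a difference. Srxn1, which restores oxidised peroxiredoxins, had 1.08 and 0.35 in naïve and -0.20 and -0.55 in sham neurons, where it was not detected and was at least 1.85-fold lower. Prdx1, a peroxiredoxin, had 6.75 and 6.75 in naïve and 6.15 and 5.97 in sham neurons. Both differences were negative under each of the 5 scalings.

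Which genes stayed level was asked with the confidence interval of the difference, since a missed threshold does not show that values are alike. A probe was called level when it was well above background on all 4 arrays and its 95% interval lay within -1 and 1, a 2-fold band. With the array median 0 genes were level, since the narrowest interval reached 1.02 to either side and the median interval 1.07. The 75th percentile drew the arrays closer together, the median interval reached 0.77 to either side, and 4067 of 10115 genes (40.2%) were level. Under the 75th percentile, quantile normalization, the median of bright probes and the series values alike, 3494 genes (34.5%) were level. Leaving out 1 array gave 0 level probes with the array median, or 32 without naïve replicate 2.

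Level genes with the narrowest interval at the 75th percentile were Cdadc1, Rabl6, Ugcg, LOC366396, Nrgn and Tspan14, each level also under the other 3 scalings. Nrgn, the calmodulin-binding protein of dendritic spines, had 12.18 and 12.70 in naïve and 13.07 and 12.92 in sham neurons. On the scale of the 75th percentile its difference was 0.26, with an interval from -0.34 to 0.87. Ugcg, which makes glucosylceramide, had 5.30 and 5.84 in naïve and 6.29 and 6.15 in sham neurons, with an interval from -0.24 to 0.97 on that scale. The level genes of highest signal were Ubb, Mif, Tubb2b, Gapdh, Tubb4b and LOC683917. Ubb, a ubiquitin gene, had 12.72 and 13.16 in naïve and 13.39 and 13.07 in sham neurons. Gapdh, the glycolytic enzyme used as a PCR reference, had 12.53 and 12.89 in naïve and 13.22 and 13.07 in sham neurons, with an interval from -0.48 to 0.77 at the 75th percentile. For Tubb2b, with a difference of 0.45 with the array median, another probe differed by -0.12.

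**Figure D5:**
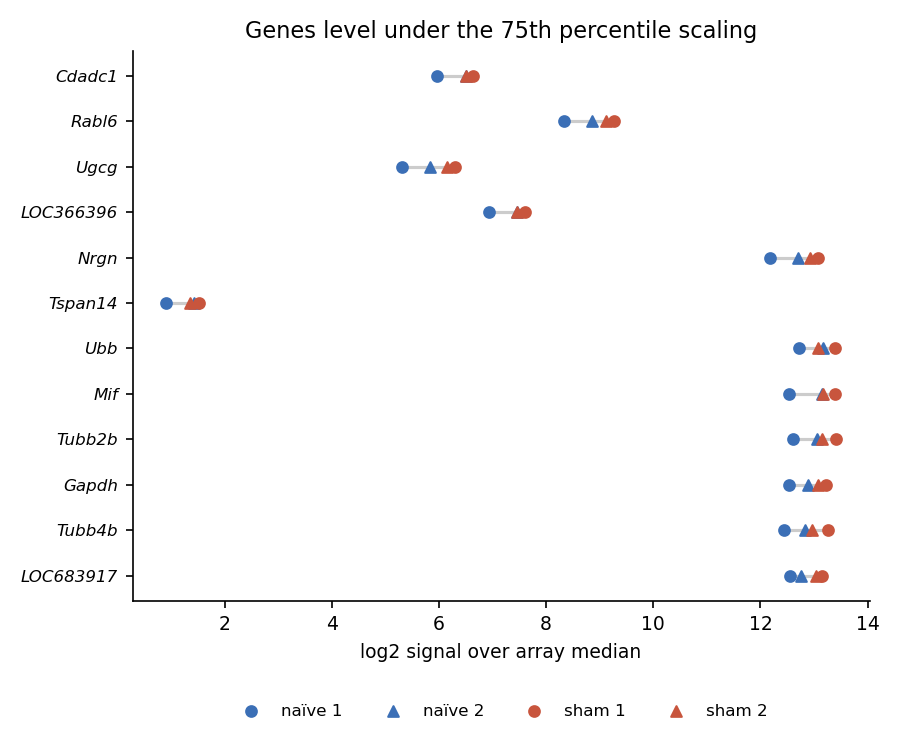
Log2 signal over the array median on each of the 4 arrays for the 12 genes named as level with the 75th percentile, the 6 with the narrowest interval above and the 6 of highest signal beneath. Naïve replicate 1 (blue circles) is the lowest of the 4 in each.

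The respiratory chain was the list with the largest share of level genes. Of its 42 genes tested 35 were level with the 75th percentile and 33 under all 4 other scalings, beside 40.2% and 34.5% of all genes. With the array median 39 of 42 were higher in sham, the median difference was 0.29, and it was negative with quantile normalization, the median of bright probes and the series values (-0.13 to -0.04). In limma 0 passed, and 0 had an unadjusted p under 0.05. Cox6c, a subunit of cytochrome c oxidase, had 11.74 and 12.07 in naïve and 12.43 and 12.21 in sham neurons. Uqcrb, a subunit of complex III, had 11.26 and 11.84 in naïve and 11.89 and 11.57 in sham neurons, and the groups overlapped. Among 19 reference genes 13 were level under the 75th percentile and under all 4 other scalings. All 19 were higher with the array median, with a median of 0.43 that was -0.01 with quantile normalization. Past the limma threshold were 0, and 1 had an unadjusted p under 0.05, the TATA-binding protein Tbp with 4.44 and 4.81 in naïve and 5.77 and 5.60 in sham neurons.

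Some genes were measured by PCR in the same work. For an entry that the study's primer list names IL16R the list here holds Il16, which may be a different gene. Of 29 such genes 27 were tested here and 25 were higher in sham, with a median of 0.43 and of 0.06 to 0.16 under the 4 other scalings. The limma fit called 0, and 2 had an unadjusted p under 0.05. Jak3, a kinase of cytokine receptors, had 4.53 on naïve replicate 2 and 6.33 and 6.15 in sham neurons, with no value on naïve replicate 1, and Cd14 was the other. Level with the 75th percentile were 11 of the 27.

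Each group holds 2 arrays of pooled neurons. According to the methods, array pools drew on 3 to 6 rats unless specified, and the replicates of dying and surviving neurons were biological. The methods do not say this of the naïve or sham pools by name. Whether the naïve or the sham pools shared animals is not stated either, so the p-values measure the spread between these arrays. The naïve arrays took the leading positions of the slide and the sham arrays the next, so that position and surgery cannot be told apart. The labels allow for either of 2 amplification kits and assign neither to a pool, whereas the methods name 1 of them, so kit and group may coincide.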

How the data were processed

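Neurons of 2 naïve and 2 sham pools were measured on 1 slide. Per the file headers, the authors made the processed intensity with Agilent Feature Extraction 9.1.3.1, corrected for background and for trends within the array and not between arrays. The deposited series table holds the authors' signal, divided by 1 constant per array. Here spots marked non-uniform were dropped, replicate spots were averaged by probe, signals were scaled to the array median, a floor of 0.01 was set and log2 was taken. Symbols came from the RefSeq accession, then the current symbol or a synonym. For 1512 of the 12179 probes the name given with the array data was used. The 20679 probes well above background throughout at least 1 group were tested with limma 3.58.1 in R 4.3.3, two-sided, with Benjamini-Hochberg adjustment over all of them. A symbol was read from its brightest probe. Single values of 2 genes are not reported here.

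Members and lists were chosen with earlier results of these data known. Named in each direction were up to 12 genes detected on all 4 arrays with groups apart, largest difference past the threshold, then smallest p, and 6 with the largest bound. Also named were 6 level genes with the narrowest interval, 6 of highest signal, and list members of smallest p. The lists cover pyramidal, granule or CA1, interneuron, microglia, astrocyte, oligodendrocyte, vessel, and blood and choroid markers, and the glucocorticoid, immediate early, neurotrophin, neuropeptide, inflammation, heat shock, clock, GABA-A, glutamate, two-pore channel, antioxidant, cell death, respiratory chain, reference and PCR genes. Other members that were singled out, such as Nr3c1, Gfap, Arc or Bdnf, and the promoters shown, were chosen after their values were seen. Alternatives were other scalings, background correction, filters, priors, a replicate block and leaving out each array. Depth was the signal over background, and the number of arrays limits the precision.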

Additional observations from a re-analysis of the deposited data

How the results depend on the processing

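The 118 called probes became 0 with the 75th percentile, quantile normalization, the median of bright probes, the normexp correction (105 at an unadjusted p under 0.05), no filter on background (2615), the series values and all 8 arrays (997). They were 61 with only probes well above background on all 4 arrays, 193 with non-uniform spots kept, 292 with a trend in the prior and 366 with the replicate number as a block, though the replicate numbers do not pair (r = 0.0132 between the deviations of naïve and sham). Leaving out 1 array gave 186 to 3390. The 388 probes over 2-fold became 192, 206, 193, 190 and 71 with the 75th percentile, quantile normalization, the median of bright probes, the series values and normexp. They were 791 with no filter on background, 737 with the smaller replicate at least 50% of the larger, 1164 with no filter on replicates and 586 to 2437 without 1 array. The 0 level probes became 6727, 7507, 7336 and 7077 under the 4 other scalings, 466 with no filter on background, 23 with all 8 arrays, 949 with a trend and 0 to 32 without 1 array. Keeping only probes with a value on all 4 arrays, chosen after seeing the data, gave 125 called probes. The 36 genes picked as higher or lower kept their sign in all 600 values under the alternatives, but the picking largely fixed this, so it does not show stability. The scalings shifted differences by less than these, and a trend in the prior or a block leaves a difference as it was. For genes picked with both sham arrays beyond both naïve arrays, leaving out 1 array cannot turn the sign either. Of the values, 81 lost and 56 gained the call. Medians changed sign at least once in 12 of 23 lists, and 49 values of list members gained a call. Of the 42 genes called, 38 were among the 20% of genes with the lowest signal. The cause of these shifts was not tested.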

Other observations

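Some genes past the threshold were not detected on every array and fell outside the rule for named genes, and the following were chosen after their values were seen. They entered the test through the group in which they are high, which favours a difference. Serpina3n, a serine protease inhibitor of the acute phase and of reactive astrocytes, had -1.49 and -0.35 in naïve and 4.23 and 2.55 in sham neurons, detected on 1 naïve and both sham arrays. Bcat1, the cytosolic aminotransferase of branched-chain amino acids, had -1.01 and 0.77 in naïve and 4.15 and 4.12 in sham neurons, again with 1 naïve array above background. Gja5, a connexin of arterial endothelium, had -2.79 and -2.80 in naïve and 0.53 and 1.28 in sham neurons, and Traf3, an adaptor of receptors of the tumour necrosis factor family, had -2.03 and -2.00 in naïve and 0.20 and 0.41 in sham neurons. Both were detected in sham neurons alone. Myh8, a myosin heavy chain, had 0.85 and 1.58 in naïve and -2.32 and -1.95 in sham neurons, and Cpeb2, a binder of cytoplasmic polyadenylation elements, 0.93 and 1.57 in naïve and -1.0 and -1.90 in sham neurons. Both were detected in naïve neurons alone.

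Injured rats were measured on another slide, so injury and slide cannot be told apart, and their values are listed without a test. Hspb1, with 2.04 to 3.09 in naïve and 4.75 to 5.11 in sham neurons, had 7.79 and 7.85 in surviving neurons, and 8.0 and 8.76 in dying ones. Timp1, with 3.02 to 4.01 in naïve and 4.81 to 6.93 in sham neurons, had 10.14 and 8.52 in surviving neurons, and 10.88 and 10.37 in dying ones. Ccl2 had 5.52 and 4.90 in surviving neurons, and 6.54 and 6.52 in dying ones. Ptprj had 8.0 and 6.43 in surviving neurons, and 7.18 and 7.27 in dying ones. Chd1l had 2.80 and -0.03 in surviving neurons, and -1.22 and 2.21 in dying ones, Gnrh1 1.30 and 1.35 in surviving and 3.64 and 2.43 in dying ones, and Col3a1 3.15 and 1.19 in surviving and 4.52 and 2.84 in dying ones. Ttr had 8.68 and 4.27 in surviving neurons, and 4.09 and 8.82 in dying ones.

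The genes below had some of the widest gaps between replicates, and in each a gap exceeded the difference between groups. Smaller gaps were common. Over probes, the median of replicate 1 minus replicate 2 was -0.56 in naïve and 0.24 in sham, beside a median difference of 0.43 over genes. Among genes detected on all 4 arrays, both sham arrays lay above both naïve arrays in 44.4% and below in 1.34%. In the rest the groups overlapped. Sv2b, a synaptic vesicle protein, had 3.1 on naïve replicate 1 and 9.01 on naïve replicate 2, with 9.41 and 9.73 in sham neurons. Slc17a6, the vesicular glutamate transporter typical of thalamus, had 7.98 and 4.84 in naïve and 4.90 and 7.38 in sham neurons, high on naïve replicate 1 and sham replicate 2. The kinase Prkcd had 8.11 and 5.20 in naïve and 4.10 and 7.53 in sham neurons and was high on the same arrays. Sostdc1 had 1.25 and 1.22 in naïve neurons, 2.31 on sham replicate 1 and 6.61 on sham replicate 2, the array with high Ttr. Plac9 had 0.87 and 3.81 in naïve and 6.26 and 1.65 in sham neurons. Cd74, the invariant chain of class II antigen presentation, had 0.00 on naïve replicate 1 and 4.33 on naïve replicate 2, with 1.81 and 3.08 in sham neurons. What set these arrays apart was not tested.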
